A study of Mus musculus with 165 samples.

Results

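The 8 genes described here are *S100a8*, *S100a9*, *S100a4*, *S100a6*, *S100a10*, *S100a11*, *Anxa1* and *Anxa2*, the S100 alarmins, other S100 genes and annexins of differentiating PUER cells. They were chosen by symbol, and all 8 were found among the 36255 genes of the expression table and passed the filter on low values. PUER cells, for which the paper names both fetal liver and bone marrow as the source, are a myeloid progenitor line without endogenous PU.1 (PU.1-/-). They express a PU.1 fusion protein. The estrogen receptor part of the fusion binds 4-hydroxytamoxifen (OHT), which makes the factor active. PolyA RNA was sequenced. Undifferentiated cells in IL3, without OHT, were the start of both courses (3 libraries). In IL3 conditions, the macrophage course, 200 nM OHT was added and 27 time points from 1h to 168h were taken (IL3-OHT, 81 libraries). In GCSF conditions, the neutrophil course, IL3 was replaced by GCSF for 48 h (GCSF 0h, 3 libraries without OHT) before 100 nM OHT was added and 27 time points from 1h to 168h were taken (GCSF-OHT, 78 libraries). Every group carries the same transgene in the same line. The cytokine and the OHT dose changed together and cannot be told apart, and with no later library without OHT analysed here, neither can OHT and time in culture. The pre-treatment took away IL3 and added GCSF, and these changes cannot be told apart either. Part of the medium was replaced with fresh OHT at 40h, 88h and 136h, and cells were detached with trypsin at all time points after 24h.

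S100 proteins are small calcium-binding proteins with paired EF-hands that work mostly as dimers. S100A8 and S100A9 pair to form calprotectin, which fills much of the neutrophil cytosol, binds zinc and manganese, and acts as an alarmin through TLR4 and RAGE once it leaves the cell. Annexins bind acidic phospholipids when calcium rises, and some S100 proteins are their partners: S100A10 with annexin A2, and S100A11 with annexin A1. Annexin A1 is also released by neutrophils and limits their recruitment through formyl peptide receptors.

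The 6 S100 genes lie on chromosome 3 of GRCm38. *S100a4* (90603771 to 90606045), *S100a6* (90612882 to 90624181) and *S100a8* (90668978 to 90670035) are on the plus strand and *S100a9* (90692632 to 90695721) on the minus strand, so that 22596 bases separate *S100a8* from *S100a9*. *S100a11* (93520488 to 93526287, plus strand) and *S100a10* (93555080 to 93564643, plus strand) are a second group, 2824766 bases beyond *S100a9*. *Anxa1* lies on chromosome 19 (20373428 to 20390944, minus strand) and *Anxa2* on chromosome 9 (69453620 to 69491795, plus strand). The promoters of *S100a8*, *S100a9* and *Anxa1* are shown because *S100a8* and *S100a9*, which encode calprotectin, were higher in GCSF-OHT at every shared time point and *Anxa1* had the largest interaction of the 8 genes. Each is the 250 bases before the RefSeq start on the gene's strand (GRCm38.p6, chr3:90668821-90669070 plus, chr3:90695722-90695971 minus and chr19:20390672-20390921 minus), 5′ to 3′, with matches to PU.1 (GAGGAAG, both strands), C/EBP (TTNNGNAA, both strands), AP-1 (TGANTCA, both strands) and TATA box (TATAAA, the gene's strand) motifs in capitals.
S100a8 promoter: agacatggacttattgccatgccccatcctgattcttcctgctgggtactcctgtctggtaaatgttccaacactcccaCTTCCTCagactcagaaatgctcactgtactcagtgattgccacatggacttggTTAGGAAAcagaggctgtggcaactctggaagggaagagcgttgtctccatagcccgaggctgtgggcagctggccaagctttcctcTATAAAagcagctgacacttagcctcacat
S100a9 promoter: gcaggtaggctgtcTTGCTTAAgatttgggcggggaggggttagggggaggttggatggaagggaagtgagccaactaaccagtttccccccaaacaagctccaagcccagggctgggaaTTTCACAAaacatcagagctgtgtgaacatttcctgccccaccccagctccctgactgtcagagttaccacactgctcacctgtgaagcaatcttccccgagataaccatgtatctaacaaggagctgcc
Anxa1 promoter: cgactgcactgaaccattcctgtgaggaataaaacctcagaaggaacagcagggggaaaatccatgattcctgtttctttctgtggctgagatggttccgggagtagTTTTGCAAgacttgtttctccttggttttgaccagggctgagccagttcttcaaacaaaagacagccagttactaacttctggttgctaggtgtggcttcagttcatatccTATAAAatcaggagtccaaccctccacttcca
The *S100a8* window held, from its 5′ end, a PU.1 match (as the reverse complement CTTCCTC), a C/EBP match ending at -110 and a TATA box starting at -30, counting the base before the start as -1. The *S100a9* window held C/EBP matches starting at -236 and -130, and that of *Anxa1* a C/EBP match at -143 and a TATA box at -32. No printed match overlapped another, and AP-1 letters were found in the *S100a11* window (2 matches) and the *Anxa2* window (at -95). *S100a4* held a TATA box, *Anxa2* one as well, and *S100a6* none of the 4 motifs. Of 32851 promoters of this length, 10.6% held the PU.1 letters, 36.8% those of C/EBP, 6.75% those of AP-1 and 7.59% the TATA box. Of the 8 genes, 7 had a promoter in the RefSeq table, all but *S100a10*.

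The libraries held 14600246 to 33147945 reads on genes (median 21960878), and 0.523% to 2.51% of them fell on the 8 genes. A floor of 3 reads, which covers counting error only, equals a normalized count of 1.96 to 5.51. The neutrophil and granule markers (8 of 8 detected in every group) summed to 151718 to 362781 in GCSF-OHT and 67186 to 188773 in IL3-OHT. Among them, *Ltf* and *Ly6g* reached more in IL3-OHT (266.3 and 62.3) than in GCSF-OHT (217.2 and 39.4), and all the others reached more in GCSF-OHT. The macrophage markers (6 of 8 detected in both) had lower sums, 941 to 6245 in GCSF-OHT and 2536 to 12804 in IL3-OHT. Of these, *Itgam* reached 8161 in IL3-OHT and 4235 in GCSF-OHT against at most 590.1 in undifferentiated cells, *Cd68* reached 5058 and 1849 against 2322, and *C1qa* did not exceed 2 reads in any library. *Adgre1* and *Csf1r* reached more in GCSF-OHT (490.1 and 56.3) than in IL3-OHT (438.8 and 23.4). *Mrc1* and *Mertk* reached more in IL3-OHT (78.4 and 36.2) than in GCSF-OHT (26.9 and 10.2). Lymphoid markers (2 of 6 detected) summed to no more than 284. *Nkg7* had up to 314 reads in a library and *Cd79a* up to 21, while *Cd3e*, *Cd3g* and *Pax5* were at 3 reads or fewer. The part of these cells in the results was not tested. *Spi1* (PU.1) reads can come from the transgene, so they check no label. GCSF-OHT 104h replicate 3, the deepest library, stood apart for *S100a8*, *S100a10* and *Anxa1*. GCSF-OHT 96h, 112h and 152h had 2 libraries each. In bulk RNA a shift in the mix of cells and a shift in RNA per cell cannot be told apart.

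All values below are normalized counts, the authors' read counts divided by a size factor per library. Fold changes are differences of log2(normalized count + 1) from limma over 17414 genes, and changes were called where the adjusted p was below 0.05 with a log2 fold change beyond 0.58 in either direction. The start and end of each course were compared first in 4 comparisons, which share libraries. In IL3, 4 of the 8 genes were called at 168h against undifferentiated cells (3 higher and 1 lower, with 25.4% of all genes called, 10.2% higher and 15.2% lower). Over the GCSF pre-treatment, before OHT, 6 were called (3 higher and 3 lower, with 33.7% of all genes called, 13% higher and 20.7% lower). Over the following OHT treatment 7 were called higher and none lower (24.8% of all genes called, 12.1% higher and 12.6% lower). From undifferentiated cells to GCSF-OHT 168h, 6 were higher and 1 lower (39.1% of all genes called, 15.5% higher and 23.6% lower). The median log2 fold change of the 8 genes from GCSF 0h to 168h was 1.26, against 0 for all genes. Total-count scaling moved the median of all genes by 0.21 over the pre-treatment and by -0.16 over OHT treatment in GCSF, and the share of higher changes among all genes called from 38.6% to 57.9% over the pre-treatment and from 48.96% to 32.3% over OHT treatment. All 8 genes changed over time by limma's moderated F in both courses, with a fold past the threshold at 1 or more time points, as did 69.7% of all genes in IL3 and 47.7% in GCSF.

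**Figure D1:**
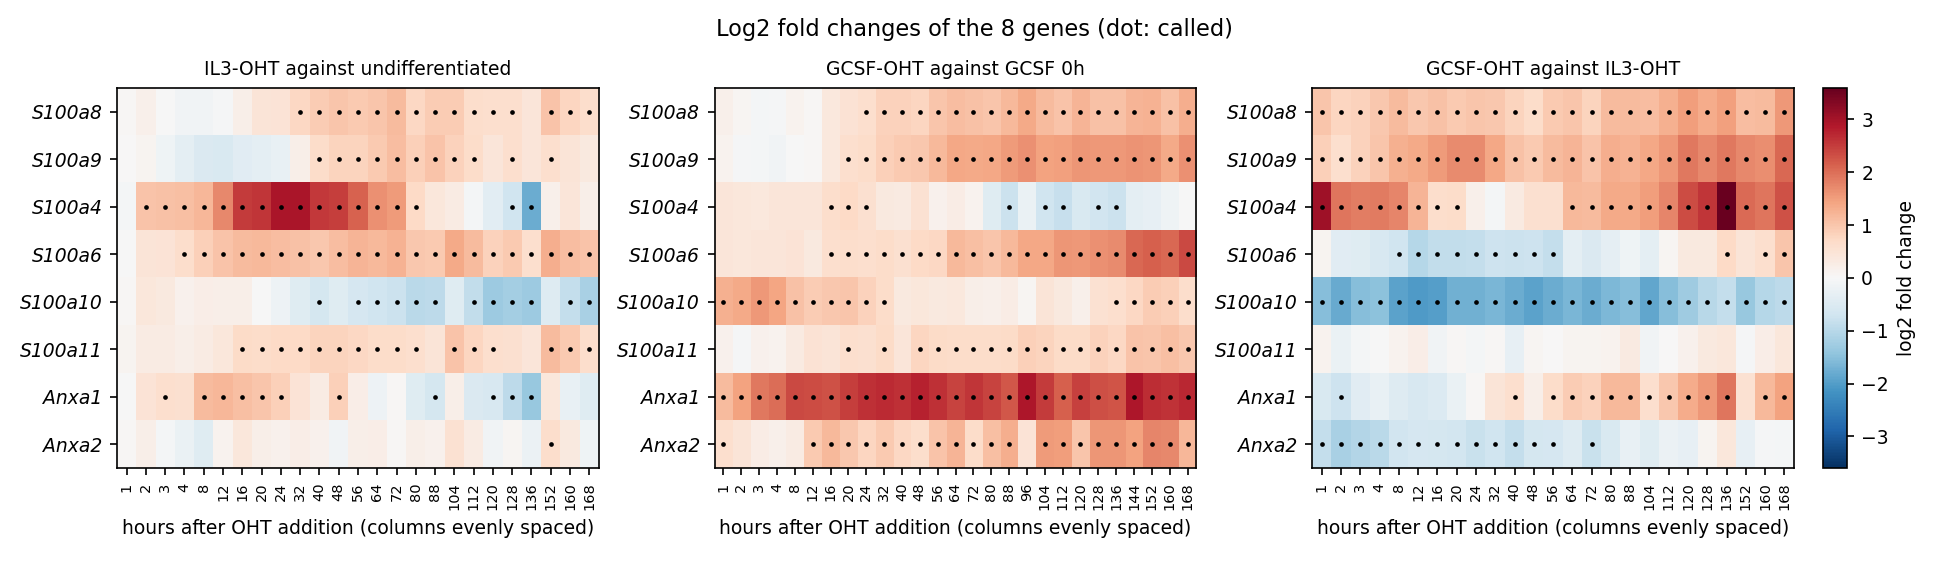
Log2 fold change (color) of the 8 genes (rows) at each time point (columns, evenly spaced) for IL3-OHT against undifferentiated cells, GCSF-OHT against GCSF 0h, and GCSF-OHT against IL3-OHT, with a dot where the change was called. *S100a8* and *S100a9* are dotted in all 25 columns of the last panel, and *Anxa1* in all 27 of the middle one.

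*S100a8* and *S100a9*, the calprotectin genes, were the most abundant of the 8 genes per kb of exon and rose more in GCSF than in IL3 (the test of this difference is given with the interaction). *S100a8* read 37825, 41495 and 45213 in the undifferentiated libraries, 58784.5, 70622.5 and 64247 at IL3-OHT 168h, 69235, 76593 and 83434.5 at GCSF 0h, and 183962, 196693 and 190793 at GCSF-OHT 168h. The undifferentiated libraries were the lowest and those of GCSF-OHT 168h the highest, and only IL3-OHT 168h and GCSF 0h overlapped. *S100a9* read 50754, 54436 and 52808 in undifferentiated cells, 62009, 73294 and 65600 at IL3-OHT 168h, 83961, 88416.5 and 95908 at GCSF 0h, and 276086, 290932 and 267869 at GCSF-OHT 168h. Its 4 groups did not overlap. For *S100a8* the log2 fold change was 0.64 (SE 0.09, adjusted p = 1.93e-09) over the IL3 course, 0.88 (SE 0.09, adjusted p = 2.51e-15) over the GCSF pre-treatment and 1.32 (SE 0.09, adjusted p = 9.23e-26) over OHT treatment in GCSF. The first of these was 0.57 without replicate 2 and then under the threshold. For *S100a9* the values were 0.34 (SE 0.07, adjusted p = 1.16e-05, under the fold threshold), 0.76 (SE 0.07, adjusted p = 2.10e-18) and 1.64 (SE 0.07, adjusted p = 3.09e-43).

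In IL3 neither gene rose steadily. *S100a9* read 35615, 36272 and 35607 at 12h, all below the undifferentiated libraries, with a log2 fold change of -0.56 (SE 0.07, adjusted p = 1.09e-11) that did not pass the fold threshold. *S100a8* at 12h was 40356 ± 1226 (SD, n = 3), within the range of undifferentiated cells. Both reached their highest IL3 mean at 72h, where *S100a8* was 91505 ± 6910 (SD, n = 3) and *S100a9* 113565 ± 6430 (SD, n = 3), 2.42 and 3.17 times their lowest means. *S100a8* was called higher than in undifferentiated cells at 15 of 25 IL3 time points, from 32h on with the exception of 136h. *S100a9* was called higher at 11, from 40h on but not at 120h, 136h, 160h or 168h. Over all 8 genes, 52.5% of the 200 comparisons of an IL3 time point with undifferentiated cells were called (87 higher and 18 lower), against 26.7% over all genes (11% higher and 15.7% lower).

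Against GCSF 0h, *S100a9* was called higher at 20 of 27 time points, from 20h on, and *S100a8* at 19, from 24h on. The highest means came at 96h (196237 for *S100a8* and 278298 for *S100a9*, 2 libraries each), and both overlapped the libraries of 168h. Over all 8 genes, 69.4% of the comparisons of a GCSF time point with GCSF 0h were called (67.1% higher and 2.31% lower), against 15.4% over all genes (8.39% higher and 6.99% lower). At 104h replicate 3 read 213624 for *S100a8* where the other libraries read 163624 and 136763.

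**Figure D2:**
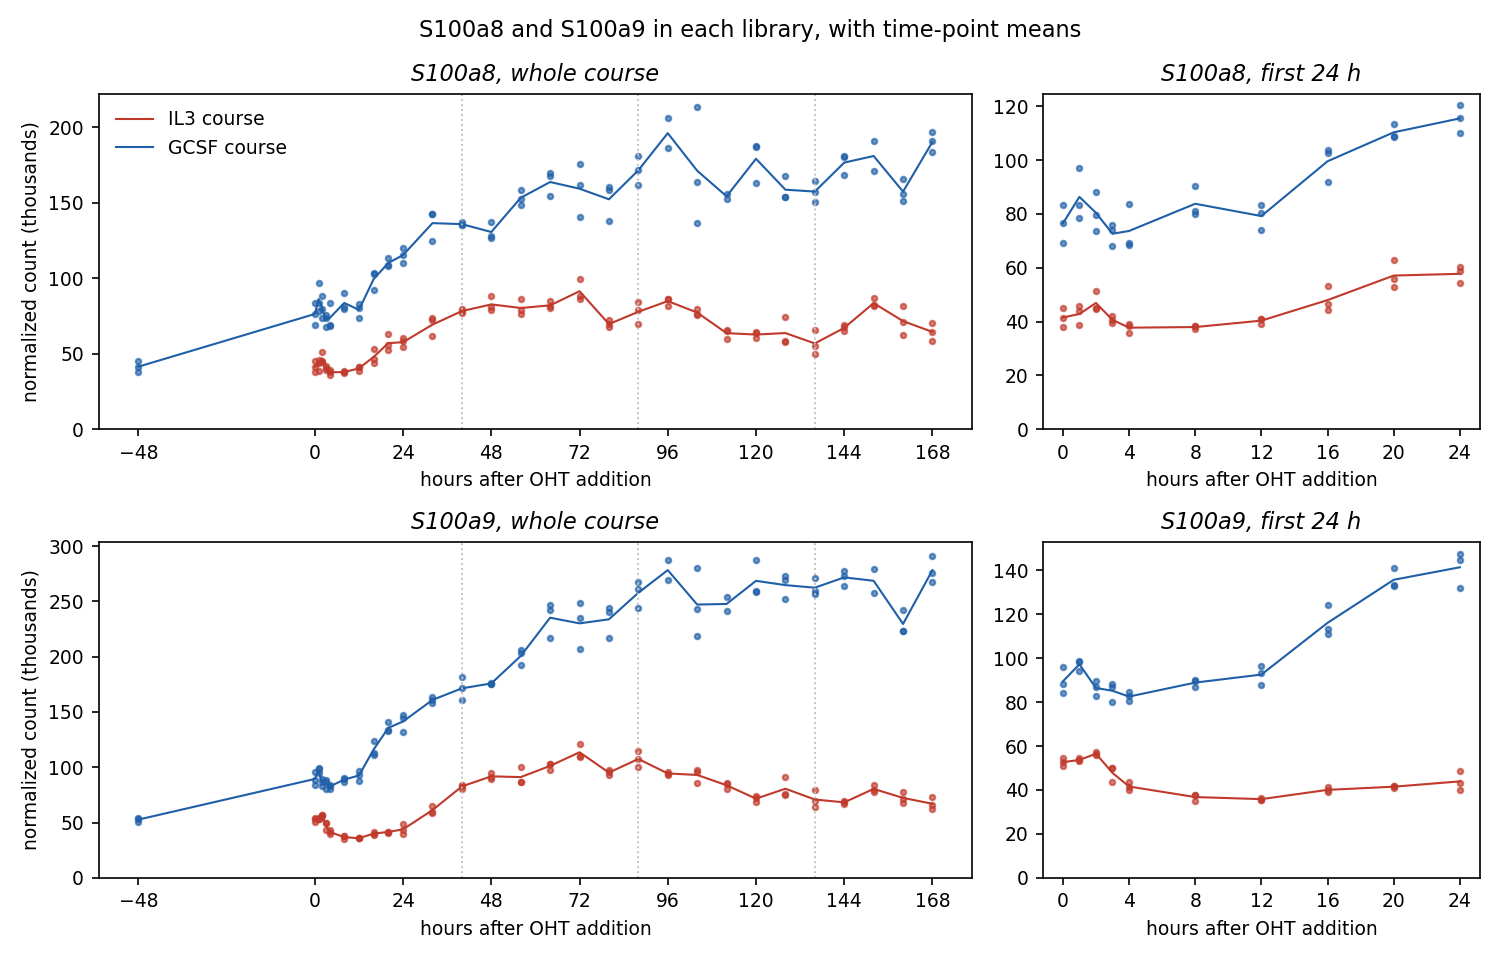
Normalized counts of *S100a8* and *S100a9* in each library against hours after OHT addition, with lines through the means of each condition. GCSF-OHT runs above IL3-OHT at every shared time point, and both IL3 lines peak at 72h.

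GCSF-OHT exceeded IL3-OHT for both genes at each of the 25 shared time points. The log2 difference of *S100a8* lay between 0.66 at 48h and 1.56 at 168h, and that of *S100a9* between 0.61 at 2h and 2.06 at 168h. Averaged over the shared time points it was 1.07 (SE 0.02, adjusted p = 6.05e-84) and 1.37 (SE 0.01, adjusted p = 2.16e-108). Of the 8 genes, 3 were called higher and 1 lower in this comparison (24.5% of all genes called, 9.34% higher and 15.1% lower). Among all genes called the higher share was 38.2%, and 50.8% with total-count scaling, which moved the median of all genes by 0.10. Time by time, 67.5% of the 200 comparisons of the 8 genes were called (86 higher and 49 lower in GCSF-OHT), against 22.7% over all genes (9.97% higher and 12.7% lower).

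The ratio of *S100a8* to *S100a9*, which form 1 heterodimer, is described here without a test, and gene length cancels in it between libraries. Its log2 mean was -0.35 ± 0.11 (SD, n = 3) in undifferentiated cells. At IL3-OHT 20h it was 0.46 ± 0.15 (SD, n = 3), by 88h it stood at -0.47 ± 0.04 (SD, n = 3), and the last time point gave -0.05 ± 0.02 (SD, n = 3). At GCSF 0h it was -0.23 ± 0.04 (SD, n = 3), GCSF-OHT 128h gave -0.74 ± 0.06 (SD, n = 3), and the last time point -0.55 ± 0.05 (SD, n = 3). The 20h libraries of the 2 conditions did not overlap, nor did those of 168h.

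**Figure D3:**
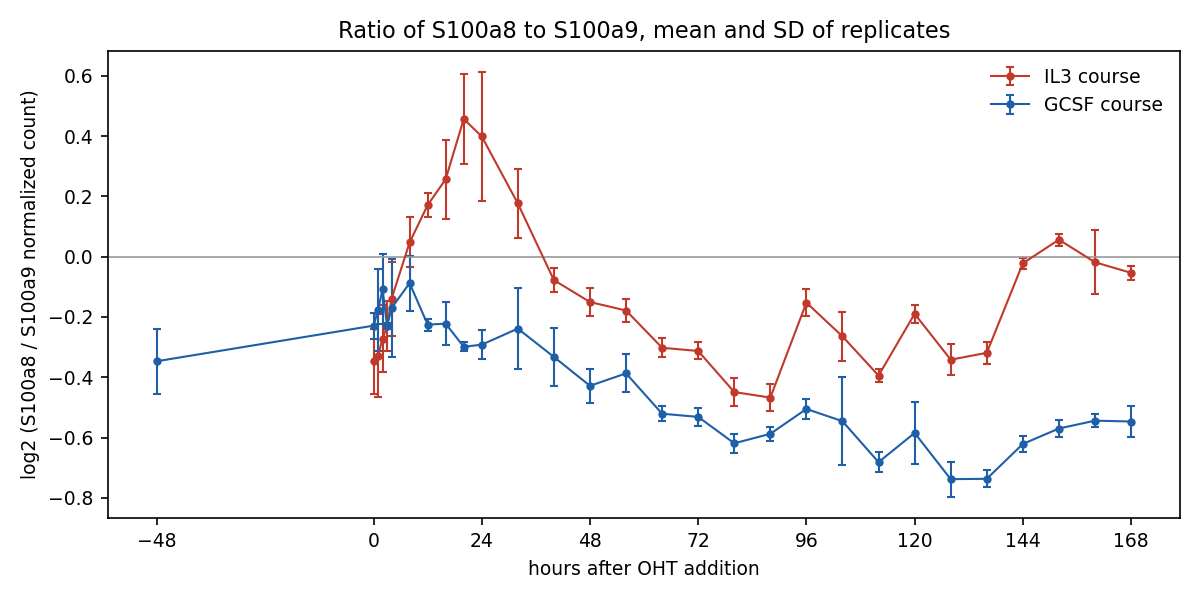
Log2 ratio of *S100a8* to *S100a9* normalized counts against hours after OHT addition, as the mean and SD of the replicates. The IL3 course peaks at 20h (0.46) and the GCSF course has its low at 128h and 136h (-0.74).

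*S100a4*, known for its part in cell migration and binding to nonmuscle myosin, had the lowest normalized counts of the 8 genes. Per kb of exon it was not the lowest at GCSF 0h, with 358 against 303 for *S100a10*. It read 27.5, 41.9 and 37.8 in undifferentiated cells and 40.4, 38.4 and 45.2 at IL3-OHT 168h, overlapping groups with a log2 fold change of 0.22 (SE 0.17, adjusted p = 0.291). In between it rose to 277, 235 and 327 at 32h (log2 fold change 2.94, SE 0.17, adjusted p = 1.08e-31) and fell to 10.2, 13.7 and 5.85 at 136h (log2 fold change -1.80, SE 0.17, adjusted p = 1.71e-17). These 136h values rest on 8, 11 and 5 reads. It was called higher at the 15 time points from 2h to 80h and lower at 128h and 136h. The rise started with the step from 1h to 2h (log2 fold change 1.09, SE 0.17, adjusted p = 3.43e-08).

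In GCSF the level of *S100a4* was already reached before OHT. GCSF 0h read 241, 180 and 207, all above the undifferentiated libraries (log2 fold change 2.53, SE 0.17, adjusted p = 5.93e-27), and GCSF-OHT 168h read 191.8, 228 and 194 (log2 fold change from GCSF 0h -0.03, SE 0.17, adjusted p = 0.942). Its highest GCSF mean, 343 ± 32.7 (SD, n = 3), was at 20h and its lowest, 116.3, at 112h (2 libraries). It was called higher than at GCSF 0h at 16h, 20h and 24h and lower at 88h, 104h, 112h, 128h and 136h. Against IL3-OHT it was higher at 20 of 25 time points, by up to 3.55 (SE 0.17, adjusted p = 8.24e-39) at 136h, and not from 24h to 56h, the hours of its IL3 peak. At 32h the difference was -0.08 (SE 0.17, adjusted p = 0.79). *Gm42674* overlaps *S100a4* on the same strand and had at most 9 reads in a library, up to 40% of the *S100a4* count (median 0%).

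*S100a6*, calcyclin, which binds annexins and the adaptor Cacybp, rose in both courses. In IL3 it was called higher than in undifferentiated cells at 22 of 25 time points, from 4h on, with its highest mean of 14019 ± 550.5 (SD, n = 3) at 104h. It read 5386, 5548 and 5490 in undifferentiated cells and 10558, 11515 and 11233 at IL3-OHT 168h, without overlap (log2 fold change 1.02, SE 0.06, adjusted p = 3.81e-30). In GCSF it was called higher than at 0h at 21 of 27 time points, from 16h on, after a first-hour step of 0.44 (SE 0.06, adjusted p = 4.35e-09) under the fold threshold. It read 4635, 3871 and 4241 at GCSF 0h and 20622, 23258 and 22285 at 168h (log2 fold change 2.38, SE 0.06, adjusted p = 5.14e-64), and no library of any other GCSF time point reached those of 168h. The order of the conditions turned over during the course: *S100a6* was lower in GCSF-OHT than in IL3-OHT at 9 time points from 8h to 56h (-1.03 at 12h, SE 0.06, adjusted p = 2.06e-30) and higher at 136h, 160h and 168h (0.99 at 168h, SE 0.06, adjusted p = 2.52e-29).

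*S100a10*, the S100 partner of annexin A2 in a complex that binds plasminogen at the cell surface, had the largest fall of the 8 genes with the GCSF pre-treatment. It read 2509.6, 2544 and 2382 in undifferentiated cells and 420, 330.2 and 352 at GCSF 0h (log2 fold change -2.76, SE 0.08, adjusted p = 4.05e-59). Within 1 h of OHT it rose to 919, 844 and 891, above every GCSF 0h library (log2 fold change 1.27, SE 0.08, adjusted p = 5.86e-28). Its GCSF mean was highest at 3h (1086 ± 75.9, SD, n = 3) and, among the time points after OHT, lowest at 96h, where the libraries overlapped GCSF 0h. It was called higher at 15 of 27 time points, those up to 32h and those from 136h on, and ended at 601, 575 and 542 (log2 fold change from GCSF 0h 0.65, SE 0.08, adjusted p = 7.19e-12). That last call was lost without replicate 2 (0.57) and with total-count scaling (0.47).

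In IL3, *S100a10* changed by 0.04 (SE 0.08, adjusted p = 0.798) in the first hour. It was called lower than in undifferentiated cells at 12 of 25 time points from 40h on, and read 1079.5, 1087 and 1145 at 168h (log2 fold change -1.17, SE 0.08, adjusted p = 4.52e-26). *S100a10* was lower in GCSF-OHT at all 25 shared time points, by between 2.04 at 12h and 0.85 at 136h on the log2 scale, and the mean difference was -1.57 (SE 0.02, adjusted p = 1.88e-108).

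*S100a11*, a partner of annexin A1 and the third most abundant of the 8 genes per kb of exon in every start and end group, was the only 1 of the 8 with no called difference between the conditions at any shared time point. It read 5197, 5069 and 4817 in undifferentiated cells and 7621, 7964 and 8016 at IL3-OHT 168h. The GCSF 0h libraries read 5098, 5201 and 5771, and GCSF-OHT 168h read 9981, 10517 and 10858. The starts overlapped and the ends did not. The log2 fold change was 0.65 (SE 0.06, adjusted p = 1.47e-17) over the IL3 course and 0.97 (SE 0.06, adjusted p = 4.59e-29) over OHT treatment in GCSF. None of the 25 differences between the conditions was called by limma (-0.30 at 40h to 0.41 at 168h, SE 0.06), though 13 had an unadjusted p under 0.05, and their mean of 0.08 (SE 0.01, adjusted p = 2.53e-08) differed from 0.

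*Anxa1* had the largest log2 change of the 8 genes with OHT in GCSF. It read 4033, 4078 and 3986 in undifferentiated cells and 1324, 1162 and 1223 at GCSF 0h, without overlap (log2 fold change -1.71, SE 0.08, adjusted p = 6.19e-41). The first hour of OHT brought it to 2862, 2641 and 2692 (log2 fold change 1.14, SE 0.08, adjusted p = 1.01e-25), it was called higher than at GCSF 0h at all 27 time points, and at 168h it read 7768, 8253 and 8493 (log2 fold change 2.72, SE 0.08, adjusted p = 3.87e-60). Its highest GCSF mean was 9315 at 96h (2 libraries), 7.53 times GCSF 0h.

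In IL3, *Anxa1* was higher than in undifferentiated cells early and lower late. It read 9415, 9730.2 and 8772 at 12h (log2 fold change 1.21, SE 0.08, adjusted p = 2.49e-28), fell to 1561, 1699 and 1479 at 136h (log2 fold change -1.35, SE 0.08, adjusted p = 2.57e-32), and read 2761, 3281 and 2970.1 at 168h (log2 fold change -0.43, SE 0.08, adjusted p = 9.70e-07, under the fold threshold). The 136h libraries were below those of every other IL3 time point. It was called higher at 7 of 25 time points (3h, 8h to 24h and 48h) and lower at 4 (88h, 120h, 128h and 136h). GCSF-OHT was lower at 2h (-0.76, SE 0.08, adjusted p = 9.84e-16) and higher at 13 time points from 40h on, most at 136h (1.92, SE 0.08, adjusted p = 1.69e-45). The difference averaged over shared time points was 0.47 (SE 0.02, adjusted p = 4.03e-55), which did not pass the fold threshold and reached 0.60 with total-count scaling.

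*Anxa2*, which with S100A10 brings plasminogen to its activators at the cell surface, fell with the pre-treatment and rose with OHT in GCSF. It read 16490.5, 17090.4 and 16707 in undifferentiated cells, 7092, 6090.4 and 5719 at GCSF 0h (log2 fold change -1.42, SE 0.07, adjusted p = 1.07e-35) and 15208, 15017 and 13245 at GCSF-OHT 168h (log2 fold change from GCSF 0h 1.20, SE 0.07, adjusted p = 8.50e-30). IL3-OHT 168h read 14460, 15826 and 15263, below every undifferentiated library and overlapping GCSF-OHT 168h, with a log2 fold change of -0.14 (SE 0.07, adjusted p = 0.0993). Its first-hour step in GCSF was 0.60 (SE 0.07, adjusted p = 2.29e-11), under the threshold without replicate 3 (0.53) and with total-count scaling (0.51). It was called lower in GCSF-OHT than in IL3-OHT at 14 of 25 time points, those from 1h to 56h and 72h.

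Of the GCSF steps between consecutive time points, 9 were called for the 8 genes (4.17%, against 1.81% over all genes), and 3 of these were the step from 0h to 1h (*S100a10*, *Anxa1* and *Anxa2*), in which 6.05% of all genes were called and 4.01% called higher. In IL3, where 14 of 200 steps were called (7%, against 3.65% over all genes), the first hour gave no call by limma, and no unadjusted p under 0.05. The IL3 step with most calls was 136h to 152h, in which 6 of the 8 genes rose (16% of all genes called, 9.22% higher): *S100a4* by 1.99 (SE 0.17), *Anxa1* by 1.75 (SE 0.08), *Anxa2* by 0.84 (SE 0.07), *S100a10* by 0.84 (SE 0.08), *S100a6* by 0.72 (SE 0.06) and *S100a11* by 0.71 (SE 0.06), with adjusted p between 1.68e-40 (*Anxa1*) and 8.61e-17 (*S100a10*). *S100a8* changed by 0.56 (SE 0.09) in that step, under the threshold, and passed it without replicate 2 (0.69), with upper-quartile scaling (0.61) and with total-count scaling (0.70). The IL3 steps left out 96h and 144h, so the step from 136h to 152h is longer than those on either side. Whether its length adds to its calls was not tested. At 144h *Anxa1* read 6474, 6068 and 5542, above every 152h library. For the other genes called in this step, the 144h libraries lay between those of 136h and 152h. Fresh OHT was added at 136h, the start of this step. Its part, and that of the medium change, was not tested.

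**Figure D4:**
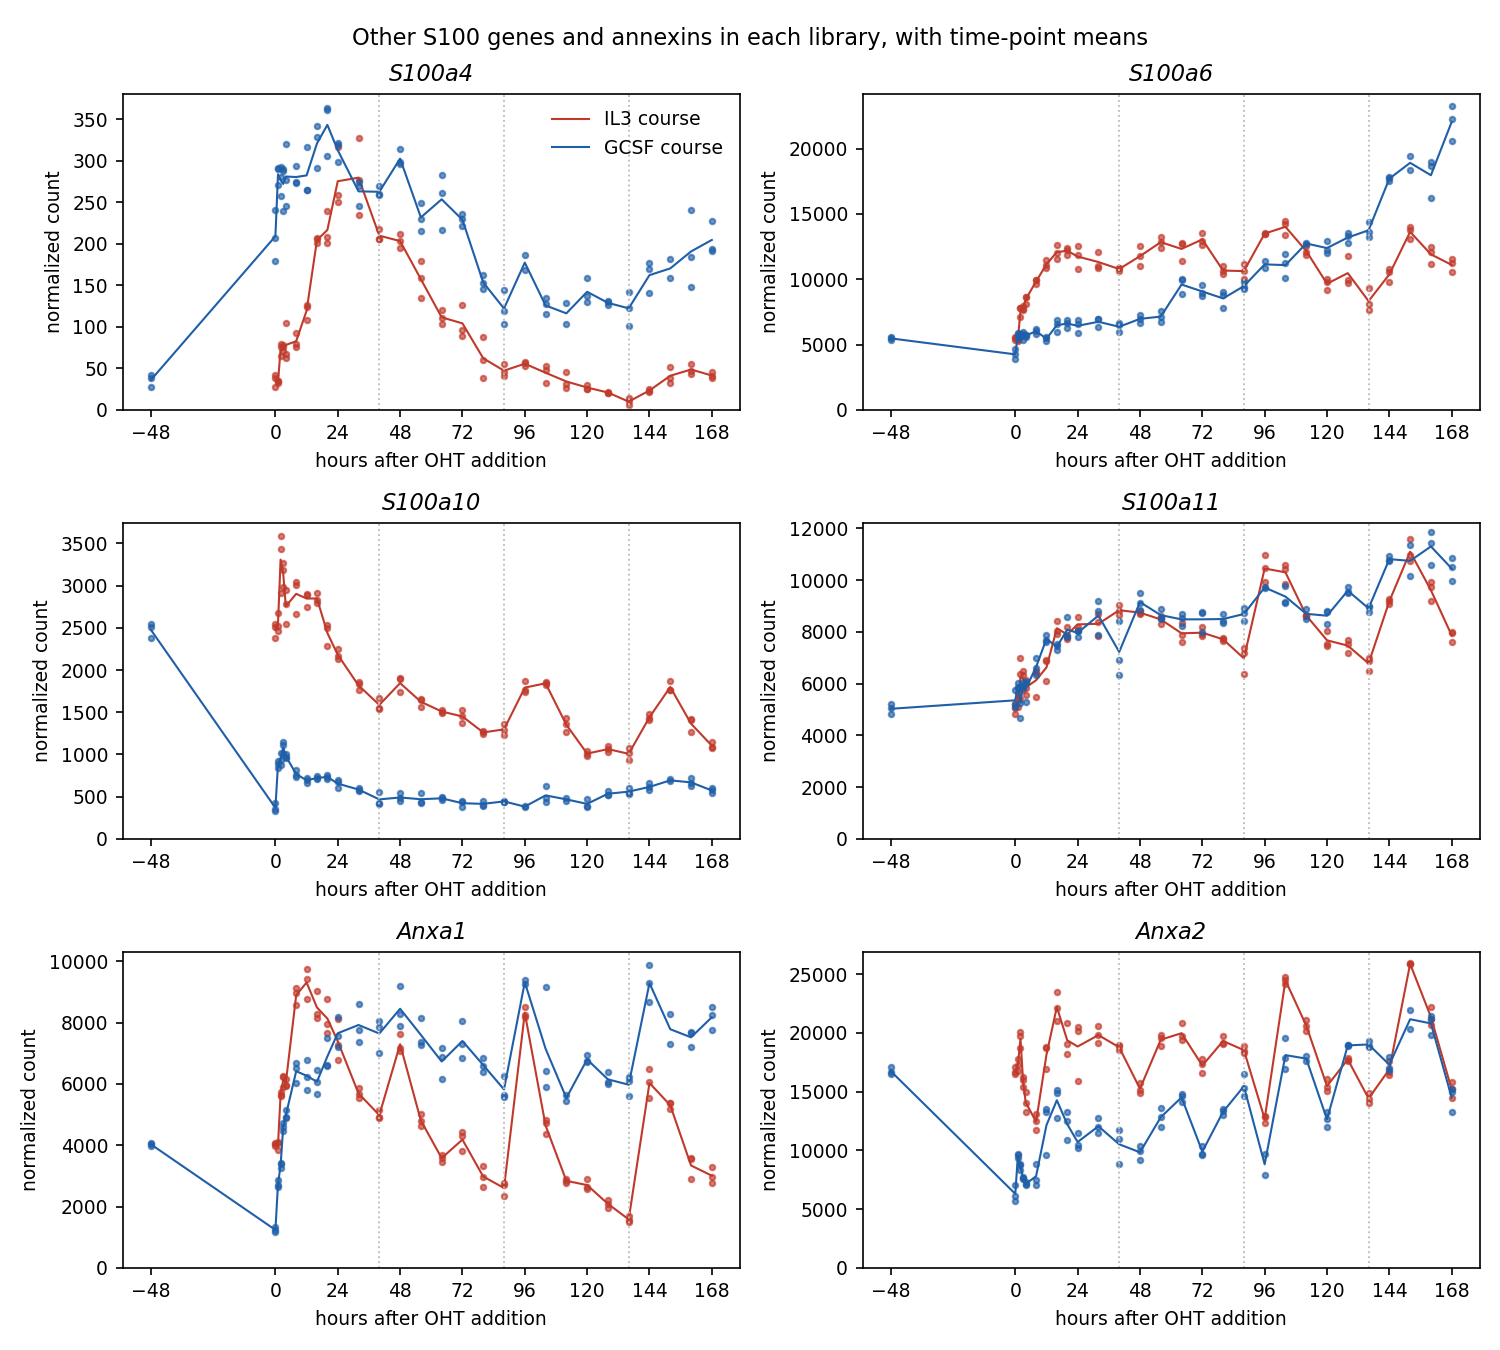
Normalized counts (linear axis) of *S100a4*, *S100a6*, *S100a10*, *S100a11*, *Anxa1* and *Anxa2* in each library against hours after OHT addition, with lines through the means of each condition. *Anxa1* in IL3-OHT stands above its neighbours at 48h, 72h, 96h and 144h, and *S100a4* in IL3-OHT has its low at 136h (9.92).

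In IL3-OHT *Anxa1* stood furthest above its neighbours at the time points that came 8 h after fresh OHT, though not only there. At IL3-OHT 96h, which with 144h the authors excluded after clustering the libraries, it read 8193, 8241 and 8510, where 88h read 2359, 2698 and 2755 and 104h 4734, 4368 and 4826. At 144h it read 6474, 6068 and 5542, where 136h read 1561, 1699 and 1479 and 152h 5166, 5370.1 and 5368. The log2 difference from the mean of both neighbours was 1.26 (SE 0.07, adjusted p = 5.90e-35) at 96h and 1.06 (SE 0.07, adjusted p = 8.89e-29) at 144h, of 17439 genes tested with all libraries. The part of the fresh OHT and medium was not tested. Each time point had its own plate, so a difference between plates cannot be told apart from these departures. In these comparisons 17.5% and 15.4% of all genes were called. At 48h, also 8 h after fresh OHT and added after the data were seen, it was 0.58 (SE 0.07, adjusted p = 3.74e-11), just under the fold threshold. At 24h, 72h and 120h, not 8 h after fresh OHT, the difference was also above 0, at 0.12, 0.36 and 0.15 (SE 0.07). The limma adjusted p was 0.836, 1.94e-05 and 0.130.

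In GCSF-OHT the *Anxa1* difference was 0.15 at 48h (SE 0.07), 0.55 at 96h (SE 0.08, adjusted p = 7.25e-09) and 0.45 at 144h (SE 0.07, adjusted p = 3.53e-07), none past the fold threshold (4.65% of all genes called at 96h and 1.85% at 144h). At 24h, 72h and 120h, not 8 h after fresh OHT, it was 0.05, 0.15 and 0.22 (SE 0.07), so that the 48h value did not stand above these. The 96h value passed the threshold without replicate 3 (0.63), which leaves out the outlying 104h library, and with total-count scaling (0.60). The difference between the conditions was 0.71 (SE 0.10, adjusted p = 7.48e-09) at 96h, or 0.65 without replicate 3, and 0.61 (SE 0.10, adjusted p = 9.33e-08) at 144h, where 7.76% and 9.66% of all genes were called. Over the 6 time points so compared, 2 of 48 such differences were called for the 8 genes (3.27% over all genes). The 144h value was 0.53 without replicate 1, under the threshold.

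*Anxa2* lay below its neighbours at every time point so compared in both conditions, most at 96h. IL3-OHT 96h read 12959.9, 12292 and 12812 against 18310.5 to 18873 at 88h and 24131 to 24784 at 104h, with a difference of -0.75 (SE 0.06, adjusted p = 2.91e-20) from the neighbours. GCSF-OHT 96h read 9730.3 and 7905 against 14651 to 16471 at 88h and 16949 to 19556 at 104h, with a difference of -0.93 (SE 0.07, adjusted p = 5.82e-20), or -0.91 without replicate 3. These 96h libraries lay below all libraries of their neighbours. At 144h the differences were -0.19 (SE 0.06) and -0.21 (SE 0.07). At 120h, whose 6 libraries carry another library prefix, they were -0.31 (SE 0.06) and -0.54 (SE 0.07). At 24h, 48h and 72h they were -0.06, -0.33 and -0.19 in IL3-OHT and -0.18, -0.24 and -0.49 in GCSF-OHT (SE 0.06). Outside 96h none passed the fold threshold. Of 32 such comparisons of the 8 genes at 96h and 144h, 4 were called (9.84% over all genes). Of 64 at 24h, 48h, 72h and 120h limma called none (1.09% over all genes), with 26 at an unadjusted p under 0.05.

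**Figure D5:**
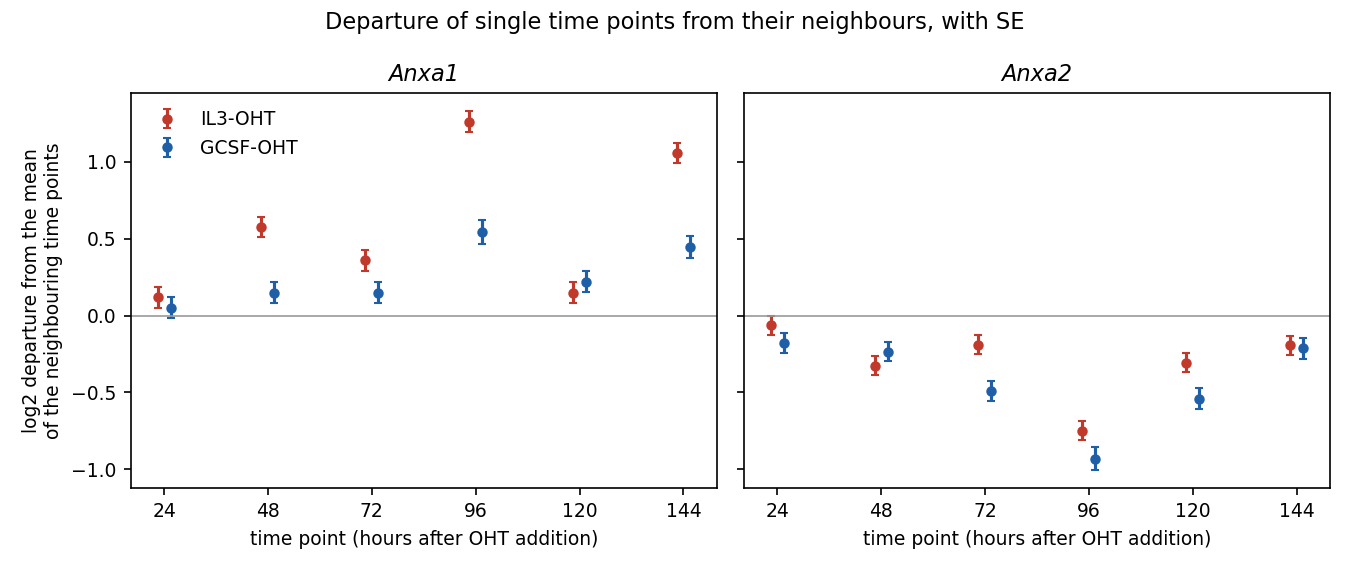
Log2 difference between a time point and the mean of its 2 neighbours, with its SE, for *Anxa1* and *Anxa2* in IL3-OHT and GCSF-OHT. *Anxa1* in IL3-OHT is highest at 96h (1.26) and 144h (1.06), and *Anxa2* is lowest at 96h in both conditions (-0.75 and -0.93).

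The change from the start of OHT treatment to 168h differed between the conditions for 6 of the 8 genes (25.7% of all genes called, 14.5% higher and 11.3% lower), each with the higher value in GCSF. For *S100a10* the changes had opposite signs, 0.65 in GCSF and -1.17 in IL3. The interaction, as a log2 difference of changes, was 3.15 (SE 0.11, adjusted p = 8.35e-51) for *Anxa1*, 1.81 (SE 0.11, adjusted p = 9.99e-29) for *S100a10*, 1.36 (SE 0.09, adjusted p = 7.13e-28) for *S100a6*, 1.35 (SE 0.10, adjusted p = 3.48e-22) for *Anxa2*, 1.30 (SE 0.10, adjusted p = 9.83e-23) for *S100a9* and 0.68 (SE 0.13, adjusted p = 4.06e-06) for *S100a8*. For *S100a4* it was -0.25 (SE 0.24, adjusted p = 0.435) and for *S100a11* 0.32 (SE 0.09, adjusted p = 0.00111), under the fold threshold. With total-count scaling, which moved the median of all genes by -0.12 and the share of higher values among all genes called from 56.2% to 42.5%, the *S100a8* value was 0.54 and no longer called. For *Anxa1*, *S100a10* and *Anxa2* the GCSF change started from the lower level of GCSF 0h. From undifferentiated cells to GCSF-OHT 168h, *Anxa1* rose by 1.02 (SE 0.08), *S100a10* fell by 2.11 (SE 0.08) and *Anxa2* changed by -0.21 (SE 0.07, adjusted p = 0.00911, under the fold threshold).

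Per kb of merged exon, the mean level in undifferentiated cells was 100893 for *S100a9*, 59814 for *S100a8*, 9839 for *S100a11*, 4493 for *Anxa2*, 4005 for *S100a6*, 2045 for *S100a10*, 1385 for *Anxa1* and 61.2 for *S100a4*. At GCSF-OHT 168h *S100a9* reached 533134 and *S100a8* 274471 per kb, *S100a6* (16134) lay above *Anxa2* (3884), *Anxa1* reached 2807, and *S100a10* (473) and *S100a4* (351) were lowest.

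Genes related to these 8 were described from lists of other S100 genes, other annexins, receptors and adaptors of S100 and annexin proteins, and the plasminogen system with other partners. The first list held 7 tested genes, 6 of them S100 genes and the other *S100pbp*, which encodes an S100-binding protein. Of these 7, limma, edgeR and DESeq2 called none over the shared time points of both conditions (median -0.23, all genes -0.06). Limma called 24.5% of all genes there. An unadjusted p under 0.05 was found for 6 of the 7 by limma and for 5 by either count test. From GCSF 0h to 168h 2 of these 7 were higher and none lower, against 12.1% and 12.6% of all genes. Of 7 other annexins, 2 were lower in GCSF-OHT than in IL3-OHT and none higher: *Anxa4* (-1.03, SE 0.01, adjusted p = 1.41e-106) and *Anxa5* (-0.92, SE 0.01, adjusted p = 7.87e-101), phospholipid-binding annexins. The median of the 7 was -0.32, against -0.06 for all genes, of which 15.1% were lower. From GCSF 0h to 168h 3 of the 7 annexins were higher and none lower, against 12.1% and 12.6% of all genes.

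Of 9 receptors and adaptors, 2 were higher in GCSF-OHT (*Fpr1*, a formyl peptide receptor, by 1.73, SE 0.08, and *Myd88*, the adaptor of Toll-like receptors, by 1.08, SE 0.01) and 2 lower (*Bsg*, a reported S100A9 receptor, by -1.36, SE 0.02, and *Cd14*, a co-receptor of TLR4, by -1.27, SE 0.01). Over all genes, 9.34% were called higher and 15.1% lower in this comparison. *Fpr1* had at most 1 read in an undifferentiated library and 4 at GCSF 0h, and read 501 ± 143 (SD, n = 3) at GCSF-OHT 168h and 71.1 ± 18.3 (SD, n = 3) at IL3-OHT 168h. Of 10 genes of the plasminogen system and partners, 4 were lower in GCSF-OHT and none higher, among them *Plau*, the urokinase activator (-1.94, SE 0.02), *Plaur*, its receptor (-1.79, SE 0.02), and *Ahnak*, a scaffold bound by the annexin A2 complex (-0.68, SE 0.02). The median of this list was -0.34, against -0.06 for all genes, of which 15.1% were lower. Over the pre-treatment, before OHT, 5 of the 10 were lower and none higher (median -0.92, all genes -0.09), against 20.7% and 13% of all genes. With OHT in GCSF 6 were higher and 1 lower (median 0.75, all genes 0), against 12.1% and 12.6% of all genes.

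The genes whose means over 54 time points ran most like each member were named by Pearson's r among 12298 genes, as a description, since neighbouring time points and libraries are shared. For *S100a8* they were *S100a9* (0.977), *Tlr1* (0.977) and *Il16* (0.969), for *S100a9* also *Hip1r* (0.962) and *Foxd4* (0.961), and for *S100a10* *Ctsl* (0.962), *Adora2b* (0.956) and *Capn2* (0.953). For *S100a6* the first was *Fcgr3* (0.914), for *S100a11* *Gm15922* (0.909) and *Pirb* (0.906), for *S100a4* *Cutc* (0.930), for *Anxa1* *Slc11a1* (0.876) and for *Anxa2* *Cdc42ep2* (0.883). *S100a10* and *Anxa2*, whose proteins form 1 complex, correlated with r of 0.461 over all time points, but -0.03 within the 26 of IL3 and -0.19 within the 28 of GCSF. *S100a8* and *S100a9* correlated within both (0.873 in IL3 and 0.988 in GCSF).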

How the data were processed

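RNA-Seq libraries of PUER cells were assigned to condition, time point and replicate by their labels. The GCSF 0h titles name OHT, while their descriptions and the study's methods place them before it. The authors quantified transcripts with Salmon (selective alignment, GRCm38; versions and the transcript-to-gene step are not given in the sources used here) and divided counts by DESeq2 size factors, so the deposited values are normalized signal. In each library 100% of nonzero values were whole multiples of a single read's value (relative deviation at most 9.66e-15, tolerance 1e-09), and whole reads were recovered. For 7 libraries with a size factor close to 1 the automatic check of this does not apply. Replicates are biological, with a plate for each time point, and differed by more than counting error (chi-square per gene 2.25 to 68.5, median 5.73, 162 pairs). Plate and time point therefore cannot be told apart. The SE and p values rest on the spread among replicates of a time point, not on that between plates. Whether counting used strand is not stated, so antisense overlaps (at *Anxa1* and *Anxa2*) cannot be told apart.

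Genes reaching a normalized count of 5 in any library were tested on log2(normalized count + 1) by limma 3.58.1 under R 4.3.3 (lmFit, then eBayes with a trend, 8.12 prior degrees of freedom), with 1 mean per condition and time point, without IL3-OHT 96h and 144h except against their neighbours, and Benjamini-Hochberg adjustment per comparison. Thresholds were the study's. The study's own count test needs counts, so it was an alternative, on the recovered reads: edgeR 4.0.16 (quasi-likelihood, TMM) and DESeq2 1.42.0 (Wald), for the comparisons of starts and ends, the shared time points and the interaction. Other alternatives were pseudocounts of 0.5 and 5, no filter (28063 genes), a mean of at least 10 (12298 genes), upper-quartile and total-count scaling, each replicate left out, and a replicate block. The neighbour comparisons of 24h, 48h, 72h and 120h, the differences of departures and a fit with all libraries were added after seeing the data. The test was tested on simulated data with known changes. The table holds 0 ERCC entries, so spike-in scaling was not run. Ratios and correlations were computed in Python 3.11.15 (numpy 2.4.6, pandas 2.3.3) and plots drawn with matplotlib 3.10.9. Gene positions and exon lengths are from GENCODE M21 (GRCm38) and promoters from RefSeq.

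All 8 genes are named. Of each list of related genes, at most 4 are named, those with the largest change among genes called over the time points shared by both conditions, and *Fpr1* levels were added after their values were seen. Some genes of these lists are counted but not reported here by name. The genes most like each member are the first in order of r. The members and lists were chosen with earlier results of these data known.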

Additional observations from a re-analysis of the deposited data

Results flagged for a closer look

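The interaction of OHT with condition at 168h (the log2 change from GCSF 0h to GCSF-OHT 168h minus that from undifferentiated cells to IL3-OHT 168h, limma over all genes) was past the thresholds for 6 of the 8 genes: *Anxa1* (3.15), *S100a10* (1.81), *S100a6* (1.36), *Anxa2* (1.35), *S100a9* (1.30) and *S100a8* (0.68). In *S100a10* the changes were of opposite sign, 0.65 in GCSF and -1.17 in IL3. In *Anxa1* they were 2.72 and -0.43, the latter under the fold threshold.

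The departure of *Anxa1* from its neighbours was larger in IL3-OHT than in GCSF-OHT at 96h (difference 0.71) and at 144h (difference 0.61), both 8 h after fresh OHT. Groups held 3 libraries or fewer, so no test for a single outlying library was made.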

How the results depend on the processing

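Of 358 counts and summary values recomputed under the alternatives, 353 stayed within the limits set (within 1.5 times the main count) and 5 did not. All 5 belong to comparisons of a time point with its neighbours, added after seeing the data. At 24h, 48h, 72h and 120h, 0 members were called in the main fit and 1 with total-count scaling, and 0 to 1 with each replicate left out. Genes called there numbered 1520, and 979 to 1394 with each replicate left out (979 without replicate 2). The departures differed between the conditions for 2 members, and for 1 to 3 with each replicate left out. Of 820 values of single genes, 804 kept their direction and side of the threshold, 7 lost the threshold, 6 gained it and 3 changed sign. Those 3 were *S100a4* values that were not called: from GCSF 0h to 168h it was -0.03, and -0.21 to 0.13 with each replicate left out, and for the interaction it was -0.25, and -0.61 to 0.061 with each replicate left out. The 13 others were *S100a8* in IL3 at 168h, in the step from 136h to 152h and in the interaction, *S100a10* from GCSF 0h to 168h, *Anxa1* over the shared time points and in its departures at 96h and 144h, and *Anxa2* in the first hour of GCSF, with their values beside those results. The cause was not tested.

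Samples of the same replicate number did not deviate together. The correlation of their deviations from the group means was -0.0408 to 0.0307 between start and end groups, so the numbers were not taken as pairs. With the replicate block, 4, 6, 7, 7, 4 and 6 of the 8 genes were called in the 6 main comparisons, as without it.

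Only these 6 comparisons were run with edgeR and DESeq2. The number of replicates limits precision (3 or fewer per group), and *S100a4* at IL3-OHT 128h and 136h rests on few reads.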
